A study of Mus musculus with 18 samples.

Results

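The comparison described here set the livers of high-fat diet-prone mice (HP) against those of high-fat diet-resistant mice (HR), both fed the high-fat diet. Its members are the 3 HP and 3 HR liver libraries, 6 of the 18 libraries of the series, and the 10633 of 23474 genes that reached 1 FPKM in at least 3 of the 9 liver libraries. All mice were male C57BL/6J, an inbred strain with no engineered allele named in the labels (the strain field of every sample reads C56BL/6J, and the extraction text of the liver samples speaks of adipose tissue), aged 17 weeks, and were fed their diets for 12 weeks, starting at 5 weeks of age. The 3 liver libraries of mice on normal diet (ND) shared the fit and are given as levels, without a test. By what criterion a mouse counted as prone or resistant is not in the labels. Nor do they tie each library to its own animal, and the p-values therefore reflect only the variation among these libraries, some of which may be technical.

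Mice of an inbred strain on a high-fat diet differ in how much fat they gain and how far it accumulates in the liver, and the labels' stated interest was lipid and glucose metabolism in animals that respond differently. The adult male mouse liver carries a set of genes, among them the major urinary proteins, whose transcription depends on the pulsed release of growth hormone and which are known to fall in obese or injured liver. The liver is also the main source of acute-phase proteins, plasma proteins made in inflammation, which C/EBP beta and STAT3 are known to induce. A fat-laden liver is further known for changes in mitochondria, in detoxifying enzymes and in matrix made by hepatic stellate cells.

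The libraries carried the transcripts of hepatocytes. Of 9 hepatocyte markers every member was present in every library, except that Alb (albumin) was listed at 0 in HP 3 and at 22791 to 28319 FPKM in the other 5 HP and HR libraries. The mitochondrial gene mt-Co1 was also listed at 0 in HP 3, against 29610 to 53660 FPKM in the other 8 liver libraries, and no other gene at 5 FPKM or more in 8 liver libraries was listed at 0 in the remaining library. Neither gene passed the test (adjusted p = 0.274 and 0.34). The other 8 hepatocyte markers summed to 25040 FPKM in HP 3 and to 24500 to 29300 in the other HP and HR libraries. Skeletal muscle transcripts were in 2 libraries: 21 muscle markers summed to 224 FPKM in HP 2, 69.6 in HP 3, 38.8 in HP 1 and 30.7 to 40.0 in HR, and creatine kinase Ckm was at 21.0 FPKM in HP 2, 4.09 in HP 3 and listed at 0 in the other 4. Correlations across genes were 0.979 to 0.984 within HP, 0.986 to 0.988 within HR and 0.949 to 0.983 between them. FPKM gives no counts, so the depth is unknown. Relative depths were put at 0.963 to 1.11 in these 6 libraries against ND 2. That estimate is rough, as its peak held only 32 to 93 of the 1894 to 2074 low genes in each library. A listed 0 need not mean absent expression in this table: Hpd, Gnmt, Lcat and Onecut1, which hepatocytes are known to express, were also listed at 0 in all 9 liver libraries. Liver is bulk tissue here, and fewer cells of a type cannot be told apart from less RNA per cell.

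In prone livers 766 genes were higher and 419 lower than in resistant livers (limma on log2(FPKM + 1), Benjamini-Hochberg adjusted p under 0.05), which is 7.2% and 3.94% of the genes tested. The median difference of all genes was -0.03 on the log2 scale, the median of the higher genes 0.76 and that of the lower genes -0.63. Of the higher genes 188 differed by at least 1 on that scale, and of the lower genes 55. HP and HR values did not overlap for 34.0% of genes, 17.0% in each direction. The list counts below are to be set beside these shares, which for calls are 7.2% higher and 3.94% lower. The plot of differences against level shows more genes with a large positive difference than with a large negative one.

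**Figure D1:**
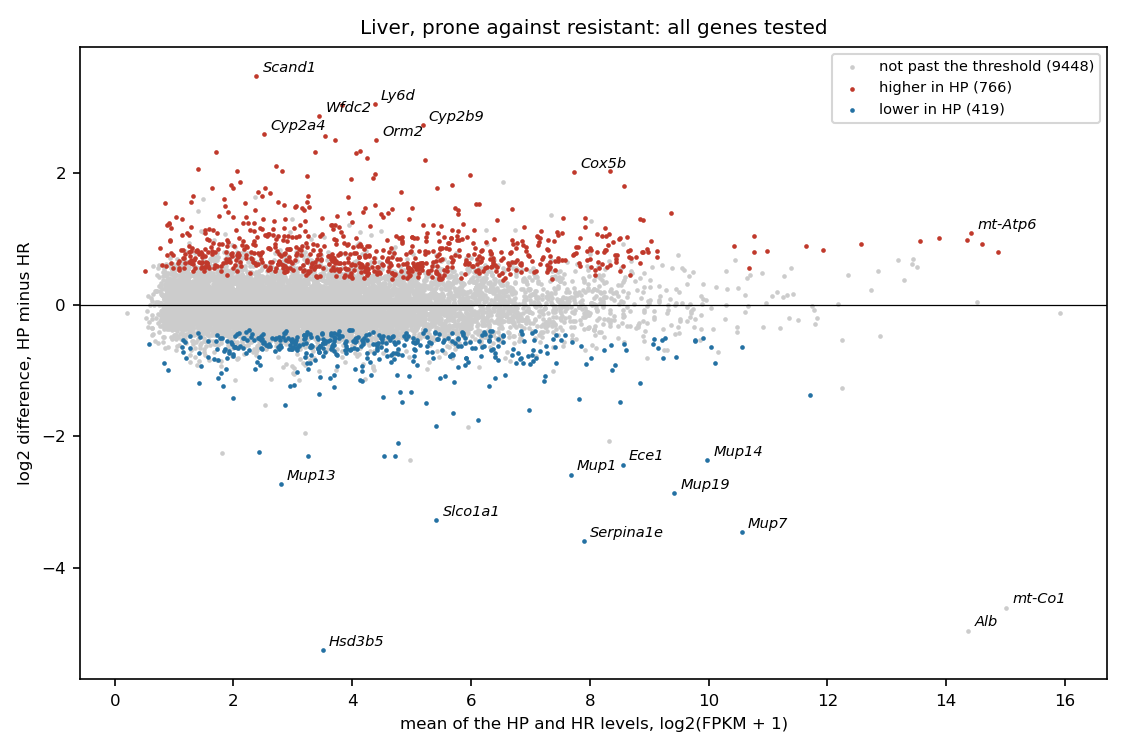
Each point is a gene tested in liver, with the mean of its HP and HR levels as log2(FPKM + 1) on the horizontal axis and the log2 difference, HP minus HR, on the vertical axis. The 766 higher genes are red and the 419 lower genes blue; Hsd3b5 lies lowest of these at -5.25 and Scand1 highest at 3.48, while Alb and mt-Co1, grey at the lower right, are listed at 0 in HP 3.

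These counts leaned on single libraries. Without HP 2, the library with the most muscle transcripts, 180 genes were higher (1.69%) and 65 lower (0.611%), and 243 of these 245 were among the 1185 and had the same direction. Without HR 2 the count was 243, without HP 3 it was 499 and without HR 3 it was 453. HP 2 was the highest HP library for 63.8% of the higher genes, and HR 2 the lowest HR library for 63.3%. All 1185 genes kept the sign of their difference in each fit that left out a library. They were picked in these same libraries, and where HP and HR values did not overlap the sign could not change, so this is no independent check. Of 178 genes past the threshold that the naming rule picked, 58 stayed past it in all 18 other settings tried (another pseudocount, filter, scaling or variance model, a length and GC correction, a replicate term, and each library left out once), 68 did without HP 2, 65 without HR 2, and 93 each without HP 3 and without HR 3. Where leaving out HP 2 ended the call of a gene named below, this is said in its paragraph. Leaving out HR 2 is given for some genes only. Calls of genes given only a value without HP 2 could end without HR 2 as well, as for Slc27a2 and Fads2 (limma adjusted p = 0.106 and 0.11). Where a list is given 0 calls in a direction and calls in the other, few of its members had an unadjusted p under 0.05 in that direction (limma). They were at most 2, except in triglyceride synthesis and lipolysis, where 4 were lower. The balance of directions depended on scaling. FPKM sums were 814700 to 930100 in HP and 720200 to 788100 in HR. The lowest HP sum was that of HP 3, where Alb and mt-Co1 were listed at 0, which also enters its rescaling. Genes of the mitochondrial genome made up 249300 to 318700 of these sums in HP and 189000 to 220000 in HR. With the libraries rescaled to the same sum 419 genes were higher and 785 lower (3.94% and 7.38%), with a median of -0.19 over all genes.

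The genes with the largest differences had prone values well outside the resistant range. Hsd3b5, a male-specific steroid dehydrogenase of hepatocytes, was at 2.58, 0.185 and 0.124 FPKM in HP 1 to 3 and at 82.0, 54.6 and 56.1 in HR 1 to 3. All 3 HP values lay under every HR and ND value, the latter being 49.1 to 79.96 (log2 difference -5.25, SE 0.38, limma adjusted p = 0.000146). Scand1, which encodes a small SCAN-domain protein, was at 12.2, 23.5 and 14.4 FPKM in HP, at 0.642, 0.429 and 0.543 in HR and at 0.203 to 0.73 in ND (3.48, SE 0.22, adjusted p = 7.395e-05). Its HR and ND values were alike and its HP values stood clear of them, and Scand1 passed the filter on low values only through the 3 HP libraries, so that it had to differ to be tested. The cell-surface gene Ly6d had 18.7, 73.7 and 98.4 FPKM in HP against 4.08 to 8.71 in HR (3.04, SE 0.51, adjusted p = 0.00721). Wfdc2, a secreted protease-inhibitor-like protein, had 12.6, 33.0 and 43.1 FPKM in HP against 1.88 to 3.85 in HR (2.86, SE 0.39, adjusted p = 0.00329). In both genes HP 1 was the lowest prone library and still lay above all HR values. Egfr, the receptor of epidermal growth factor, was lower in HP, with 18.1, 10.9 and 8.42 FPKM against 46.3 to 59.7 in HR (-2.104, SE 0.25, adjusted p = 0.0023). Ece1, which cleaves big endothelin, was lower as well, with 87.2 to 231 FPKM in HP and 446 to 1439 in HR (-2.43, SE 0.43, adjusted p = 0.00928). Each of these 6 genes was past the threshold in all 18 other settings.

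**Figure D2:**
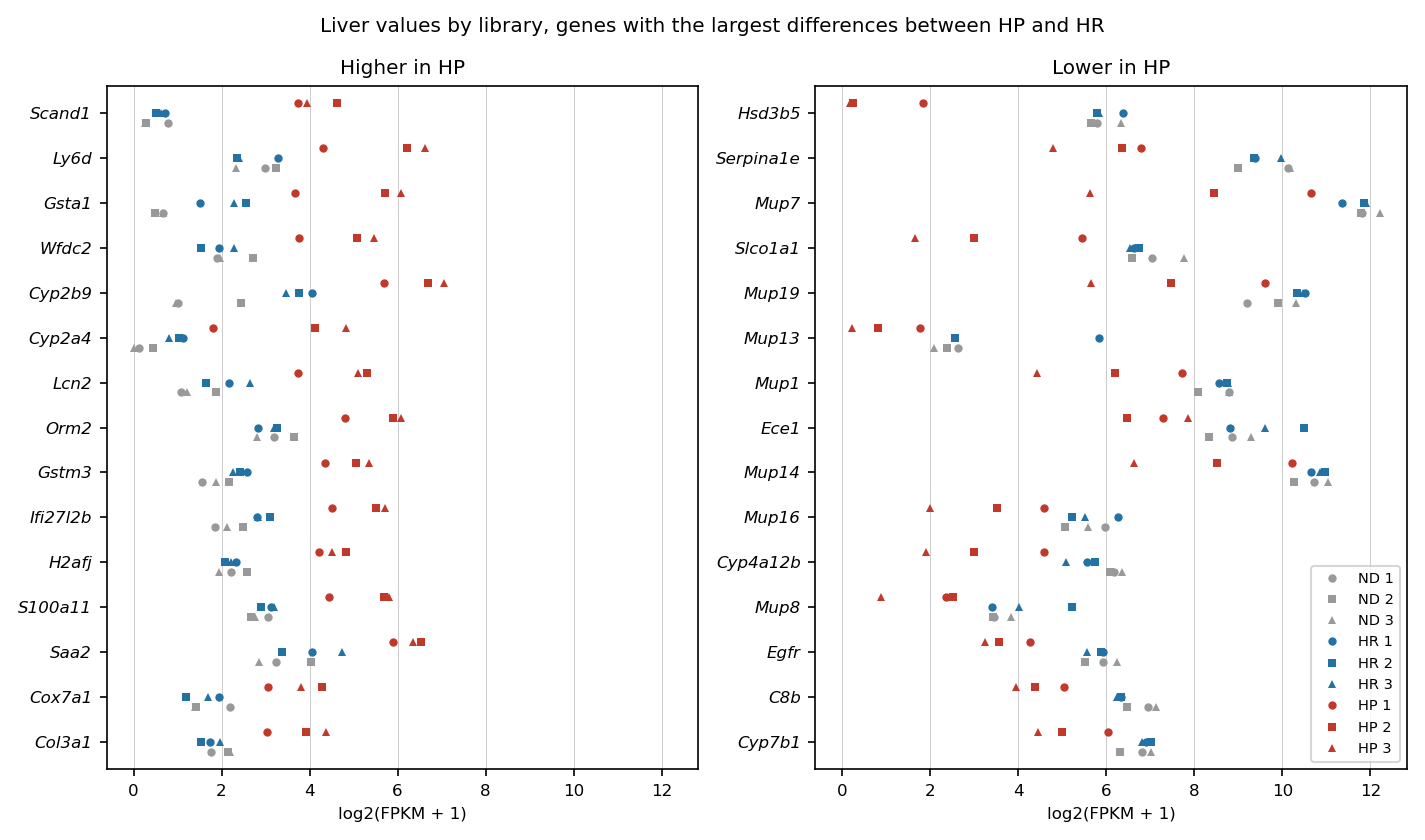
Values of the 15 higher (left) and 15 lower (right) genes with the largest differences, as log2(FPKM + 1) in each liver library, with HP in red, HR in blue, ND in grey and replicates 1, 2 and 3 as circle, square and triangle. HP and HR do not overlap for any of the 30 genes, as the rule that chose them required, and among the lower genes the 3 HP libraries are widely spread, as for Mup7, from 48.4 to 1613 FPKM.

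Male-biased liver genes were lower in prone livers. Of 20 tested members of the list 11 were lower and 0 higher, at a median of -0.89, and their summed FPKM was 2589, 2153 and 1583 in HP against 3514, 3764 and 4025 in HR. Besides Hsd3b5, Serpina1e, an alpha-1-antitrypsin gene, had 110, 80.5 and 26.5 FPKM in HP and 662, 650 and 1003 in HR (-3.59, SE 0.46, adjusted p = 0.00277). Slco1a1, an organic anion uptake transporter, had 42.9, 6.93 and 2.16 FPKM in HP and 98.4, 106 and 92.1 in HR (-3.27, SE 0.71, adjusted p = 0.0188). HP 1 was nearest to the resistant libraries in both. C8b, a chain of complement component C8, had 31.7, 19.9 and 14.4 FPKM in HP and 75.0 to 79.6 in HR (-1.85, SE 0.24, adjusted p = 0.00296). Cyp4a12b, a male-specific fatty acid hydroxylase, differed by -2.30 (SE 0.50, adjusted p = 0.0188), and Cyp7b1, an oxysterol hydroxylase of bile acid synthesis, by -1.75 (SE 0.32, adjusted p = 0.011). Without HP 2 the list had 4 lower members, without HR 2 it had 6, and Slco1a1, Cyp4a12b and Cyp7b1 then had adjusted p = 0.076, 0.0726 and 0.0509 (without HP 2).

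The major urinary proteins, pheromone carriers that the male liver secretes in bulk, varied widely among the prone libraries themselves. The 19 tested genes summed to 23130 FPKM in HP 1, 16360 in HP 2 and 7770 in HP 3, against 26010 to 27930 in HR and 26640 to 27970 in ND. HP 1 lay nearest to the resistant libraries, and HP 3 far under both other prone libraries. Of these genes 8 were lower and 0 higher, at a median of -1.95. Mup7 had 1613, 347 and 48.4 FPKM in HP and 2599, 3703 and 3839 in HR (-3.46, SE 0.90, adjusted p = 0.0338). Mup1 had 210, 71.9 and 20.3 FPKM in HP and 377, 425 and 436 in HR (-2.58, SE 0.60, adjusted p = 0.0236). HP and HR values of 12 of the 19 genes did not overlap, with HP lower in each. Without HP 2 or without HR 2 only 1 of the 19 stayed past the threshold, without HR 3 it was 2 and without HP 3 it was 4, and without HP 2 the adjusted p was 0.1 for Mup7 and 0.0788 for Mup1. Mup, Serpina1 and Cyp4a12 genes have near-identical copies among which FPKM estimation can split reads, so the value of each single copy is uncertain.

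Some female-biased genes were higher in prone livers. Of 22 members 7 passed the filter on low values, of which 3 were higher and 0 lower. Cyp2b9, a female-predominant cytochrome P450, had 50.5, 103 and 132 FPKM in HP, 15.6, 12.5 and 10.1 in HR and 0.966 to 4.42 in ND (2.73, SE 0.41, adjusted p = 0.00522). The HR libraries lay between ND and HP, with no overlap among the 3 groups. Cyp2a4, a steroid hydroxylase nearly identical to Cyp2a5 and therefore uncertain, had 2.48, 16.4 and 27.5 FPKM in HP and 0.761 to 1.19 in HR (2.59, SE 0.57, adjusted p = 0.0199; 0.0853 without HP 2 and 0.0671 without HR 2). Outside HP, Cyp2a4 reached 1 FPKM only in HR 1 and HR 2, so it passed the filter only with the help of HP libraries. Slc22a27, an organic anion transporter, had 5.45, 8.51 and 12.6 FPKM in HP and 1.83 to 1.91 in HR (1.71, SE 0.25, adjusted p = 0.00495). HP 1 was the lowest prone library in all 3 genes. Of the 15 members that did not pass the filter, Hao2 was at 0.805, 0.939 and 2.78 FPKM in HP and at 0.136 or less in HR, Cyp2b13 at 0.199, 0.987 and 3.73 in HP and at 0.143 or less in HR, and Cyp3a41a and Cyp3a41b were listed at 0 in all 9 liver libraries. Of the growth hormone axis itself, Igf1 had 249 to 369 FPKM in HP and 194 to 253 in HR (0.43, adjusted p = 0.11), Igfbp3, a carrier of IGF1, was higher (1.04, SE 0.23, adjusted p = 0.0212) and Igfals, which holds the complex together, lower (-0.50, SE 0.13, adjusted p = 0.0344). Igfbp3 had adjusted p = 0.0533 without HP 2 and 0.0816 without HR 2, and Igfals 0.0682 without HR 2.

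**Figure D3:**
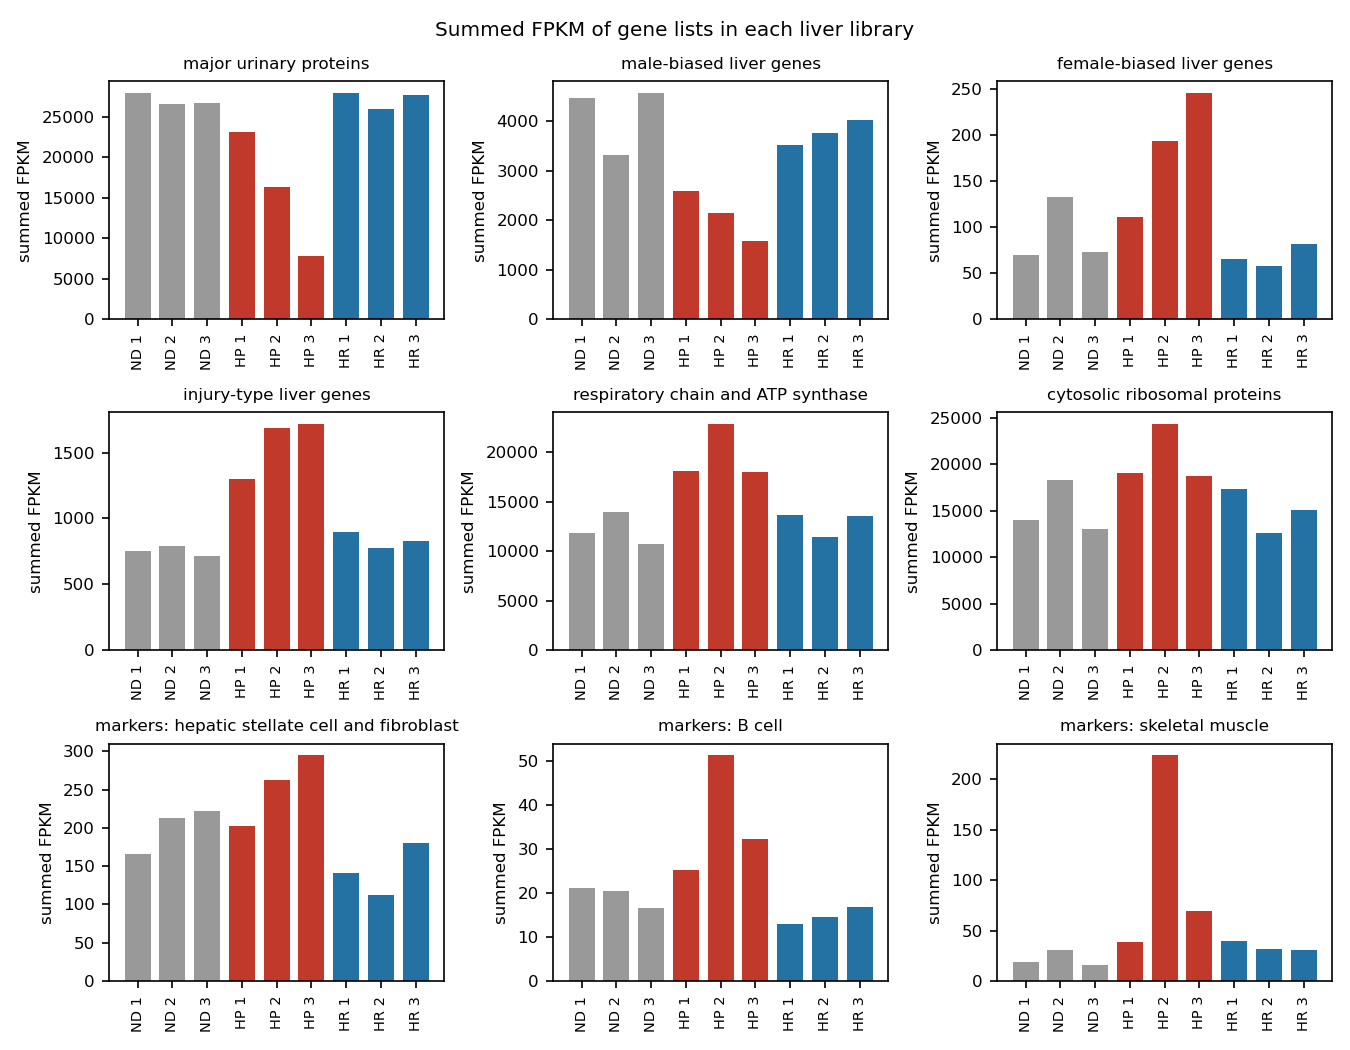
Summed FPKM of the members of 6 gene lists and 3 marker lists (markers of other cells, bottom row) in each liver library, with ND in grey, HP in red and HR in blue. Major urinary proteins run from 23130 in HP 1 to 7770 in HP 3 with HR at 26010 to 27930, injury-type genes are at 1296 to 1718 in HP and 776.5 to 894.8 in HR, and skeletal muscle markers stand out in HP 2 at 224.4.

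Acute-phase genes went both ways. Of 27 tested members 7 were higher and 5 lower, with a median of -0.03 (0.17 after the length and GC correction). The higher ones were Lcn2, Orm1, Orm2, Orm3, Saa1, Saa2 and Cebpb, and the lower ones Serpina3k, Serpina3n, Itih3, Il1r1 and Stat3. Lcn2 (lipocalin 2, which binds bacterial iron carriers) had 12.4, 38.5 and 33.2 FPKM in HP and 3.51, 2.15 and 5.23 in HR (2.56, SE 0.38, adjusted p = 0.00522). Orm2, an orosomucoid, had 26.8, 59.0 and 66.5 FPKM in HP and 6.15 to 8.64 in HR (2.50, SE 0.31, adjusted p = 0.00262). Serum amyloid A was higher, with Saa1 at 102, 140 and 118 FPKM in HP and 29.6, 17.2 and 50.4 in HR (1.97, SE 0.30, adjusted p = 0.00522). No HP value of these genes fell within the HR range. Saa2 (2.20, SE 0.35, adjusted p = 0.00642) and Orm3 (1.77, SE 0.21, adjusted p = 0.0023) were higher too, and Saa1 with Saa2 and the Orm genes share near-identical sequence, so the split between copies is uncertain. Cebpb, which encodes C/EBP beta, had 24.4, 25.5 and 36.6 FPKM in HP and 10.9 to 12.6 in HR (1.19, SE 0.15, adjusted p = 0.00266). The lower members were not past the threshold without HP 2 or without HR 2, where the list had 7 higher and 0 lower members. Saa3, at 1.30, did not pass (adjusted p = 0.053).

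Promoters of some higher acute-phase genes that hold the letters of a C/EBP site, TTGCNNAA on either strand, are shown with these letters in capitals. Sequences run from 250 bases before to 50 after the start site and are from RefSeq, build GRCm38.p6, matched by symbol.
Lcn2, chr2:32387690-32387989, minus strand: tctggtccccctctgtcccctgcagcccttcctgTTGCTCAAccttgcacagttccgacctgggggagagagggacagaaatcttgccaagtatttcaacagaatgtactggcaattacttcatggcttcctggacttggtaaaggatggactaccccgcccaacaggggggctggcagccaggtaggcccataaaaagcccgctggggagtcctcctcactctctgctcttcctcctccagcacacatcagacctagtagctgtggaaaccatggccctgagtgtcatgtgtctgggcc
Orm2, chr4:63362199-63362498, plus strand: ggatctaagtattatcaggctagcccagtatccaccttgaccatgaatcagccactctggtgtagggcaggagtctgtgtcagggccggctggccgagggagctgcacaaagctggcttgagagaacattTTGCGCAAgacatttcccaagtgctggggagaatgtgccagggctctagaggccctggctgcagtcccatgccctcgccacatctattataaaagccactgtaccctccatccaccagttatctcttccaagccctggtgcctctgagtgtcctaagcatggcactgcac
Saa1, chr7:46742931-46743230, minus strand: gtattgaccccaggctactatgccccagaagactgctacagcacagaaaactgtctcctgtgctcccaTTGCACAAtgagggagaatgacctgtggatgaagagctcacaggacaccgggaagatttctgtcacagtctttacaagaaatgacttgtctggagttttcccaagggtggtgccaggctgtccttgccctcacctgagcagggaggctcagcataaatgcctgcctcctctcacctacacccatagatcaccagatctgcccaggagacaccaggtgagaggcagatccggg
Saa2, chr7:46751583-46751882, plus strand: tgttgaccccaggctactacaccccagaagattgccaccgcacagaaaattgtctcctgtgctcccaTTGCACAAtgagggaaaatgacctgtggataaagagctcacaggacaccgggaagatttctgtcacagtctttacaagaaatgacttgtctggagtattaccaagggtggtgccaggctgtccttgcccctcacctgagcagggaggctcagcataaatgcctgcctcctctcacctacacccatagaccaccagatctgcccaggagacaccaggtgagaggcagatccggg
The Saa1 and Saa2 promoters face away from each other and hold the same letters TTGCACAA. Of the 27 acute-phase genes 22 had a promoter in the table, and 13 of these 22 (59.1%) held the motif, against 10.8% of all 32851 promoters and 10.5% of the tested genes with a promoter. Among the 592 higher genes with a promoter 11% held it, and among the 317 lower genes 15.1%. Members with the motif that did not pass the test included Fgb (-0.03, adjusted p = 0.913) and Saa4 (-0.05, adjusted p = 0.85), and Il1r1, the interleukin 1 receptor, held it and was lower (-0.72, adjusted p = 0.0205; 0.0838 without HP 2). In all, 9 motifs were searched, no match shown overlapped a match of another, and a match describes letters only. The STAT motif, TTCNNNGAA, was in 5 of the 22 acute-phase promoters (22.7%) and in 0 of the 10 called ones. Among the tested genes with a promoter 8.4% held it. Fgb, Saa4 and Il1r1 were chosen for mention after their values were seen.

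Genes of an injury-type liver response had the largest share of calls among the 43 lists, but the list was drawn up with earlier results of these libraries known, so that its direction is no independent evidence. Of 23 tested members 18 were higher and 0 lower, with a median of 1.32. Anxa2, a membrane-binding annexin, had 29.6, 36.1 and 58.7 FPKM in HP and 7.90 to 10.9 in HR (1.99, SE 0.23, adjusted p = 0.00225). S100a11, a calcium-binding S100 protein, had 20.8, 50.4 and 55.1 FPKM in HP and 6.501 to 8.20 in HR (2.23, SE 0.29, adjusted p = 0.00296). Cd63, a tetraspanin of endosomes, had 10.1, 19.97 and 24.1 FPKM in HP and 3.42 to 4.05 in HR (1.95, SE 0.30, adjusted p = 0.00525). HP 1 was lowest among the prone libraries in each and lay above all HR values. Without HP 2 the list had 12 higher members, without HP 3 12, without HR 2 11 and without HR 3 15. Sprr1a, an epithelial injury gene under the filter, was at 0.843, 5.35 and 7.04 FPKM in HP, at 0.101 in HR 2 and listed at 0 in HR 1 and HR 3.

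Of 18 hepatokines, hormones that the liver secretes, 7 were higher and 0 lower in prone livers, with 3 higher without HP 2 or without HR 2. Gdf15, a stress hormone that lowers appetite, had 37.9, 26.0 and 25.8 FPKM in HP, 6.83, 7.02 and 7.42 in HR and 1.05 to 1.92 in ND (1.91, SE 0.18, adjusted p = 0.00062). HP 1 was the highest library here, unlike in the genes above, and the 3 groups did not overlap. Fgf21, a fasting and stress hormone, had 15.2, 22.0 and 21.9 FPKM in HP and 12.5, 5.59 and 4.75 in HR (1.35, SE 0.28, adjusted p = 0.0175; 0.0712 without HP 2 and 0.0713 without HR 2). Of 14 tested genes of the integrated stress response, the programme run by ATF4 and CHOP, 7 were higher and 0 lower, at a median of 0.59. Without HP 2 only 1 of them was higher, with 2 without any of HP 3, HR 2 or HR 3. Nupr1, among the 7, reached 1 FPKM outside HP only in HR 2, at 1.01, so it passed the filter on low values only through the HP libraries. The amino acid synthesis branch of that programme was under the filter, with Asns at 0.178 to 0.451 FPKM in HP and 0.363 to 0.904 in HR and Psat1 at or below 0.395 in all 6. Of 16 immediate early genes 4 were higher and 0 lower. Jund, an AP-1 subunit, had 12.8 to 14.4 FPKM in HP and 3.54 to 6.02 in HR (1.48, SE 0.18, adjusted p = 0.00269), and Jun had 8.17 to 23.5 against 2.78 to 6.52 (1.66, SE 0.34, adjusted p = 0.0158; 0.067 without HR 2 and 0.051 without HP 3). Without HR 2 only 1 member of that list was past the threshold, and without HP 3 it was 2.

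Some genes of the endoplasmic reticulum went the other way. Of 23 genes of the unfolded protein response 5 were lower and 0 higher, at a median of -0.45, with summed FPKM of 1752 to 2076 in HP and 2424 to 2923 in HR. Xbp1, the transcription factor of that response, had 94.2, 83.9 and 78.6 FPKM in HP and 148, 178 and 128 in HR (-0.81, SE 0.14, adjusted p = 0.00843). ND values of Xbp1, 80.7 to 92.4, lay within the HP range. Dnajb11, a cochaperone of BiP, had 25.0 to 33.9 FPKM in HP and 44.7 to 49.7 in HR (-0.63, SE 0.13, adjusted p = 0.0175; 0.056 without HP 2 and 0.0751 without HR 2). Without HP 2, HP 3 or HR 2 the list had 1 lower member and without HR 3 it had 2, while 10 were lower after rescaling to the same sum.

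Glutathione transferases, which conjugate electrophiles to glutathione, and other targets of NRF2 were higher for 9 of 31 tested genes and lower for 1, at a median of 0.44. Gstm1 had 827, 1197 and 1222 FPKM in HP, 406, 407 and 396 in HR and 234 to 302 in ND (1.40, SE 0.17, adjusted p = 0.00239). The 3 HR values were nearly the same, and every HP value lay clear above them. Gstm2 had 82.8 to 102 FPKM in HP and 30.4 to 34.6 in HR (1.43, SE 0.18, adjusted p = 0.00262), and Gstm3 had 19.3 to 39.8 against 3.78 to 5.01 (2.50, SE 0.24, adjusted p = 0.000659). Gsta1 had 11.8, 51.5 and 66.5 FPKM in HP and 1.87 to 4.89 in HR (3.04, SE 0.50, adjusted p = 0.00713). These transferases come in near-identical copies, so the split among them is uncertain. All 4 were past the threshold in all 18 settings, and the list had 5 higher members without HP 2 or without HP 3. The antioxidant response element, TGACNNNGC on either strand, was in the promoters of 9 of 25 tested members (36.0%) and of 0 of the 8 called ones, against 17.0% of the tested genes with a promoter and 12.4% of all promoters. Of 16 antioxidant genes 4 were higher, led by Gpx3, a secreted glutathione peroxidase (1.13, SE 0.21, adjusted p = 0.0117), and Txn1, thioredoxin (0.87, SE 0.15, adjusted p = 0.00921), with 1 left without HP 2 or without HR 2 and 2 without HP 3. Gpx3 then had adjusted p = 0.0533 and 0.0527.

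Subunits of the respiratory chain and ATP synthase coded in the nucleus were higher for 39 of 75 tested genes and lower for 0, at a median of 0.58, and values did not overlap for 62 in that direction. Their summed FPKM was 18090, 22860 and 18000 in HP against 13660, 11380 and 13500 in HR. Cox5b, a subunit of cytochrome c oxidase, had 348, 499 and 406 FPKM in HP and 88.1, 72.6 and 163 in HR (2.02, SE 0.32, adjusted p = 0.00642). Its ND values of 113 to 232 lay between, overlapping HR. Uqcrq, of complex III, had 613, 893 and 668 FPKM in HP and 326, 242 and 304 in HR (1.31, SE 0.20, adjusted p = 0.00522), and Cox8a had 333, 430 and 364 against 157, 115 and 187 (1.31, SE 0.19, adjusted p = 0.00506). Cox7a1, known as the heart and muscle form of a cytochrome c oxidase subunit, had 7.29, 18.4 and 13 FPKM in HP and 1.27 to 2.87 in HR (2.105, SE 0.32, adjusted p = 0.00522). It was highest in the 2 libraries with muscle transcripts, and in HP 1, where Ckm was listed at 0, it was at 7.29 FPKM. The part of muscle transcripts in the Cox7a1 difference was not tested. These 4 genes passed in all 18 settings, but the list did not hold its count: 12 were higher without HP 2, 8 without HR 2, 27 without HP 3 and 24 without HR 3. Its members are short, with a median transcript of 607 bases, and over all genes the difference ran with transcript length at a Spearman correlation of -0.233 across 10553 genes, which are not independent. After the correction for length and GC content 36 were higher and 1 lower.

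Genes of the mitochondrial genome, a list added after the data had been seen, were higher for 6 of 13 and lower for 0. mt-Atp6 had 27483, 37489 and 31489 FPKM in HP and 16964, 13639 and 14526 in HR (1.09, SE 0.21, adjusted p = 0.0141), and mt-Cytb had 17256, 22906 and 24572 against 11146, 10068 and 10642 (1.01, SE 0.20, adjusted p = 0.0147). HP 1 was lowest among the prone libraries and lay above all HR values in both. They had adjusted p = 0.0655 and 0.0647 without HP 2, where 1 member was past the threshold, and 0 were without HR 2 (4 without HP 3, 1 without HR 3). Cytosolic ribosomal proteins, also short at a median of 630 bases, were higher for 23 of 76 and lower for 0, with a median of 0.47. Rps28, at 311, 520 and 268 FPKM in HP and 194, 122 and 156 in HR, led them (1.18, SE 0.25, adjusted p = 0.0171). No ribosomal gene passed without HP 2 or without HR 2 (Rps28 adjusted p = 0.0533 and 0.0705), 10 passed without HP 3 and 3 without HR 3. Over all genes an unadjusted p under 0.05 (limma) was reached by 2081 without HP 2 and 2173 without HR 2, against 3265 with all libraries.

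NRF-1 is a known regulator of respiratory chain genes, so promoters of 2 called members that hold its motif are shown, with its letters, GCGCA, any base and GCGC, on either strand in capitals.
Ndufa6, chr15:82354242-82354541, minus strand: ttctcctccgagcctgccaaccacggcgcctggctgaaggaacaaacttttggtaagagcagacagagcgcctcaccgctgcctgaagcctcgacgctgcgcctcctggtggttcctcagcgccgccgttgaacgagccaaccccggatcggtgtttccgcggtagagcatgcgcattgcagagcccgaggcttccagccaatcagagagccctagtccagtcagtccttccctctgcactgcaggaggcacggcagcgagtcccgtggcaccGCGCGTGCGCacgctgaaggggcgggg
Ndufb4, chr16:37654319-37654618, minus strand: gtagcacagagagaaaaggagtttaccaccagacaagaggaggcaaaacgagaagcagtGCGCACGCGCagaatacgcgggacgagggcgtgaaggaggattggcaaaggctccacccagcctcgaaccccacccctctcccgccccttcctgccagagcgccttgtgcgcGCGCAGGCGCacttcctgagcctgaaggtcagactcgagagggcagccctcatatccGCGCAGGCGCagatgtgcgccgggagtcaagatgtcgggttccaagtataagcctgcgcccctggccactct
Ndufa6 and Ndufb4 code for subunits of complex I and were higher by 1.08 (SE 0.22, adjusted p = 0.0153) and 1.01 (SE 0.19, adjusted p = 0.0117), and were chosen for mention by their promoters after their values were seen. Without HR 2 the adjusted p was 0.067 for Ndufa6 and 0.053 for Ndufb4. Ndufb4 had 60.6, 89.0 and 63.2 FPKM in HP and 41.1, 29.7 and 32.7 in HR. The motif was in 17 of the 64 tested members with a promoter (26.6%) and in 9 of the 35 called ones (25.7%), against 4.6% of all promoters, 12.2% of the tested genes with a promoter, 10.5% of the higher genes and 7.26% of the lower ones. Within the list the share was about the same among all tested members as among those that passed.

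Genes of matrix and scar tissue were higher for 9 of 26 and lower for 1, at a median of 0.69, and 7 members of the list were under the filter. Col3a1, a fibrillar collagen, had 7.15, 14.3 and 19.6 FPKM in HP and 2.36, 1.87 and 2.89 in HR (2.03, SE 0.28, adjusted p = 0.00386). Col1a2 had 3.33, 7.87 and 11.5 FPKM in HP and 0.984 to 1.36 in HR (1.86, SE 0.30, adjusted p = 0.00652), and Sparc, which binds collagen, had 23.8 to 36.0 against 8.12 to 13.2 (1.46, SE 0.20, adjusted p = 0.00385). HP 3 was highest and HP 1 lowest of the prone libraries in all 3, without overlap with HR. All 3 held in all 18 settings, and the list had 5 higher members without HP 2, 6 without HP 3 and 4 without HR 2. Markers of stellate cells and fibroblasts moved with them: 7 of 11 tested were higher and 0 lower, the 14 members summed to 203, 262 and 295 FPKM in HP and 142, 112 and 180 in HR, and Lrat, a defining marker, was listed at 0 in all 9 liver libraries. Their part in the matrix genes was not tested. Col3a1, Col1a1 and Col1a2 are in both lists, and Col1a1 (1.78, SE 0.36, adjusted p = 0.0154) had adjusted p = 0.0687 without HP 2 and 0.0635 without HR 2.

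Some macrophage genes were higher in prone livers, where 7.2% of all genes tested were higher. Of 15 tested lipid-associated macrophage genes 7 were higher and 0 lower, at a median of 0.77, while of 16 markers of Kupffer cells and macrophages 2 were higher, Clec4f (0.51, adjusted p = 0.045) and Cd68 (1.26, adjusted p = 0.0337), at a median of 0.18. Lgals1, a galectin, had 84.7, 143 and 133 FPKM in HP and 40.0, 33.9 and 46.7 in HR (1.53, SE 0.37, adjusted p = 0.0256), and Mmp12, a macrophage elastase, had 1.23 to 3.30 against 0.0177 to 0.381 (1.23, SE 0.24, adjusted p = 0.0131; 0.0569 without HR 2). Spp1, osteopontin, had 48.9, 73.1 and 109 FPKM in HP and 27.9 to 37.4 in HR (1.14, SE 0.25, adjusted p = 0.0192), and the chemokine Ccl2 had 2.09 to 3.42 against 0.317 to 0.827 (1.18, SE 0.20, adjusted p = 0.00717). In none of the 4 did the groups overlap, and Mmp12 and Ccl2 passed the filter on low values only through the HP libraries, so that they had to differ to be tested. Ccl2 held in all 18 settings, and without HP 2 the adjusted p was 0.105 for Lgals1, 0.0701 for Spp1, 0.137 for Cd68 and 0.171 for Clec4f, with 3 of the 7 left. The sum of the 16 macrophage markers was 165 to 229 FPKM in HP and 108 to 282 in HR, with HR 2 the highest of all. Spp1 is also among 10 markers of cholangiocytes, the bile duct cells, which summed to 59.3 to 122 FPKM in HP and 37.8 to 47.6 in HR. From which cells the Spp1 difference came was not tested.

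Among markers of other cells, B cell transcripts were higher: Ighm had 6.61, 8.49 and 10.3 FPKM in HP and 3.21 to 3.26 in HR (1.14, SE 0.15, adjusted p = 0.00301), and Igkc had 15.4, 39.2 and 18.4 against 6.63 to 11.3 (1.26, SE 0.29, adjusted p = 0.0237; 0.0575 without HP 2 and 0.0777 without HR 2). The 8 B cell markers summed to 25.3, 51.5 and 32.4 FPKM in HP and 13.1 to 16.8 in HR, with the B cell marker Ms4a1 listed at 0 in all. Of 5 tested erythroid genes 2 were higher, the near-identical globin genes Hba-a1 (1.39, adjusted p = 0.0145; 0.0591 without HP 2) and Hba-a2 (1.21, adjusted p = 0.0188; 0.0653), and the list's sum was 196 to 333 FPKM in HP and 119 to 208 in HR. No T and NK cell marker passed the filter, and these 13 genes summed to 2.88 to 4.92 FPKM in HP and 2.90 to 4.83 in HR. Of 32 interferon-response genes 0 passed in either direction (limma), with a median of -0.08, and 6 were higher and 4 lower at an unadjusted p under 0.05. Without HR 3 the median was 0.11 and 1 gene was higher.

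Some genes of fat storage were higher, as were 7.2% of all genes tested. Of 14 lipid droplet proteins 5 were higher and 0 lower, at a median of 0.47, while of 18 genes of triglyceride synthesis and lipolysis 1 was higher, Mogat1, and 0 were lower, at a median of -0.10, with 4 in each direction at an unadjusted p under 0.05 (limma). Cidec, which fuses lipid droplets, had 71.8, 76.7 and 115 FPKM in HP and 32.7, 29.8 and 29.3 in HR (1.46, SE 0.24, adjusted p = 0.00711, past the threshold in all 18 settings). Plin4, a droplet coat protein, had 31.5, 33.8 and 59.0 FPKM in HP and 11.4 to 19.8 in HR (1.46, SE 0.31, adjusted p = 0.0182). Cidea, a relative of Cidec, had 15.4, 7.66 and 6.11 FPKM in HP and 0.516 to 3.91 in HR (1.69, SE 0.40, adjusted p = 0.0254). Outside HP, Cidea reached 1 FPKM only in HR 1 and HR 3, so it passed the filter on low values only with the help of HP libraries. HP 1 was the highest library for Cidea and the lowest of HP for the other 2. Pparg, the regulator of these genes in fatty liver, had 13.3 to 17.1 FPKM in HP and 7.02 to 12.7 in HR (0.71, SE 0.20, adjusted p = 0.0399), and Mogat1, its monoacylglycerol acyltransferase target, had 14.7 to 23.5 against 5.91 to 8.06 (1.21, SE 0.30, adjusted p = 0.0311). Without HP 2 the adjusted p was 0.0509 for Plin4, 0.0717 for Cidea, 0.124 for Pparg and 0.0856 for Mogat1, and the list had 1 member left, as it did without HR 2. Plin2, the main hepatocyte droplet protein, had 541 to 620 FPKM in HP and 469 to 650 in HR (0.07, 95% interval -0.39 to 0.52, adjusted p = 0.85).

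Fabp4, a fatty acid-binding protein of adipocytes and macrophages, had 35.7, 30.2 and 36.7 FPKM in HP and 10.8, 11.6 and 11.6 in HR (1.51, SE 0.15, adjusted p = 0.000842), and Dbi, which binds acyl-CoA, had 1790 to 1958 against 969 to 1091 (0.90, SE 0.13, adjusted p = 0.00405). Both groups were tight and well apart. The adipocyte markers Adipoq, Plin1 and Lep, which define that cell, were listed at 0 in all HR libraries and in HP 2, and at 1.40, 0.399 and 0.723 FPKM in HP 1. Slc27a2, a fatty acid transporter and acyl-CoA synthetase, was lower (-0.65, SE 0.15, adjusted p = 0.0233; 0.097 without HP 2). Cd36, a fatty acid translocase, had 74.1 to 97.5 FPKM in HP and 63.9 to 74.2 in HR (0.33, adjusted p = 0.176).

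Of 17 genes of fatty acid synthesis 0 passed (limma), with 2 higher and 3 lower at an unadjusted p under 0.05, and the median of 0.17 turned to -0.01 after rescaling to the same sum. Fasn had 49.6, 72.4 and 98.5 FPKM in HP and 63.4, 66.2 and 40.9 in HR (0.34, 95% interval -0.20 to 0.89, adjusted p = 0.369). Scd1, the delta-9 desaturase, had 2100, 1238 and 1958 against 812, 1481 and 1035 (0.68, 95% interval -0.02 to 1.37, adjusted p = 0.172), and Srebf1, their regulator, had 27.6 to 50.5 against 48.5 to 64.1 (-0.45, adjusted p = 0.161). The groups overlapped for each of these, and the intervals include differences of the size of many genes called. The gluconeogenic genes Pck1 (-0.69, adjusted p = 0.083) and G6pc (-0.06, adjusted p = 0.892) did not pass. Fads2, which starts long-chain desaturation, was lower (-0.80, SE 0.20, adjusted p = 0.03; 0.124 without HP 2) and Elovl5, its elongase partner, higher (0.69, SE 0.16, adjusted p = 0.0226, and 0.0388 without HP 2 but 0.0621 without HR 2).

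Of 40 genes of fatty acid oxidation and PPAR alpha targets 6 were higher and 2 lower, at a median of -0.18, and after rescaling to the same sum 3 were higher and 7 lower, at a median of -0.37. The lower ones were Eci2, an enoyl-CoA isomerase (-0.88, SE 0.21, adjusted p = 0.0252), and Cyp4a10, a fatty acid hydroxylase (-0.55, SE 0.13, adjusted p = 0.0233), with adjusted p = 0.0801 and 0.074 without HP 2. Acot4, a peroxisomal thioesterase, had 2.49 to 3.67 FPKM in HP and 0.12 to 0.957 in HR (1.56, SE 0.27, adjusted p = 0.00921). Outside HP, Acot4 reached 1 FPKM only in ND 1, at 1.61, so it passed the filter on low values only through the HP libraries. Ucp2, an uncoupling protein family member, had 34.6 to 40.1 FPKM in HP and 13.6 to 25.7 in HR (0.93, SE 0.21, adjusted p = 0.0231), and Pdk4, which restrains pyruvate dehydrogenase, had 5.26 to 8.77 against 1.79 to 3.25 (1.24, SE 0.34, adjusted p = 0.0386). Acot4 held in all 18 settings, Ucp2 and Pdk4 both had adjusted p = 0.0827 without HP 2, where 2 members were higher and 0 lower. The PPAR alpha targets Cpt1a (-0.34, adjusted p = 0.0778) and Cyp4a14 (-0.71, adjusted p = 0.0612) did not pass, nor did Ppara itself (-0.38, adjusted p = 0.249). Cpt1a and Cyp4a14 passed after rescaling to the same sum (adjusted p = 0.041 and 0.044).

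Cholesterol genes went in no single direction. Of 24 genes of synthesis and uptake 3 were higher, among them Fdps (0.82, SE 0.19, adjusted p = 0.0241), and 2 lower, Lss (-1.04, SE 0.28, adjusted p = 0.0365) and Stard4 (-0.68, SE 0.17, adjusted p = 0.0289), and 0 passed without HP 2 or without HR 2 (limma). Abcg8, which with Abcg5 exports sterols into bile, had 20.6, 19.1 and 21.1 FPKM in HP and 50.2, 44.1 and 38.0 in HR (-1.08, SE 0.17, adjusted p = 0.0065), and Abcg5 differed by -0.59 (SE 0.15, adjusted p = 0.0354; 0.0951 without HP 2). The Abcg8 values were alike within HP and clearly higher in every HR library. Apoa4, an apolipoprotein of lipid-rich particles, had 314, 694 and 1058 FPKM in HP, 121 to 176 in HR and 389 to 511 in ND (2.03, SE 0.35, adjusted p = 0.0083). Apoc2, the activator of lipoprotein lipase, had 599 to 869 FPKM in HP and 289 to 314 in HR (1.28, SE 0.16, adjusted p = 0.00262). In all 5 of 19 apolipoprotein and assembly genes were higher and 1, Apom, lower (-0.91, SE 0.17, adjusted p = 0.0117), with 2 and 0 left without HP 2. Cyp7a1, the rate-limiting enzyme of bile acid synthesis, had 58.8 to 97.4 FPKM in HP and 37.7 to 88.2 in HR (0.38, adjusted p = 0.396).

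Hepatocyte enzymes of nitrogen and amino acid metabolism were lower for 11 of 33 genes and higher for 0, at a median of -0.24. Cps1, the entry enzyme of the urea cycle, had 156, 102 and 152 FPKM in HP, 262, 416 and 441 in HR and 453 to 598 in ND (-1.44, SE 0.22, adjusted p = 0.0056). The HR values lay between HP and ND with no overlap. Cbs, which draws homocysteine into cysteine synthesis, had 89.9 to 116 FPKM in HP and 169 to 195 in HR (-0.81, SE 0.16, adjusted p = 0.0153; 0.0675 without HP 2 and 0.0517 without HR 2). Without HP 2 or without HR 2 the list had 1 lower member, Cps1, without HP 3 it had 5 and without HR 3 2. Of 21 genes of branched-chain amino acid breakdown 5 were lower and 0 higher, at a median of -0.43. Dbt, the core of the branched-chain keto acid dehydrogenase, had 21.6, 14.5 and 16.6 FPKM in HP and 30.8, 41.4 and 41.2 in HR (-1.07, SE 0.17, adjusted p = 0.0056), and Ivd, of the leucine branch, had 88.1 to 97.5 against 146 to 171 (-0.77, SE 0.11, adjusted p = 0.00404). Dbt and Ivd held in all 18 settings and were the 2 members left without HP 2.

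Plasma protein genes of clotting were lower for 6 of 20 and higher for 0, at a median of -0.19. F11, clotting factor XI, had 16.3, 15.2 and 14.97 FPKM in HP and 31.3, 28.2 and 25.5 in HR (-0.83, SE 0.14, adjusted p = 0.00713), and F7 had 24.2 to 32.7 against 45.9 to 50.4 (-0.71, SE 0.13, adjusted p = 0.0112). Both held in all 18 settings, as did Serpinf2, the plasmin inhibitor (-0.68, SE 0.13, adjusted p = 0.0112), and the list had 4 lower members without HP 2. Complement genes were lower for 5 of 29 and higher for 2. Of all genes tested 3.94% were lower and 7.2% higher, and the 2 higher of 29 are near the latter share. C3, the central component, had 844, 761 and 830 FPKM in HP and 1457, 1604 and 1428 in HR (-0.88, SE 0.14, adjusted p = 0.00654), and C6 had 14.2 to 28.3 against 42.5 to 58.7 (-1.33, SE 0.27, adjusted p = 0.0153; 0.0677 without HP 2). C2 was higher and highest in HP 2, with 115, 293 and 115 FPKM in HP and 42.9 to 86.8 in HR (1.46, SE 0.38, adjusted p = 0.0342; 0.112 without HP 2). Cfd, the adipokine adipsin, which activates the alternative pathway, had 193, 162 and 54.7 FPKM in HP and 134, 96.3 and 126 in HR (0.03, adjusted p = 0.975), with ND at 0.72 to 3.11. Lepr, the leptin receptor, was at 0.464 to 1.30 FPKM in both high-fat groups, which overlapped (0.08, adjusted p = 0.833), and at 7.81 to 13.99 in ND. Both genes lay outside the ND range in all HP and HR libraries.

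**Figure D4:**
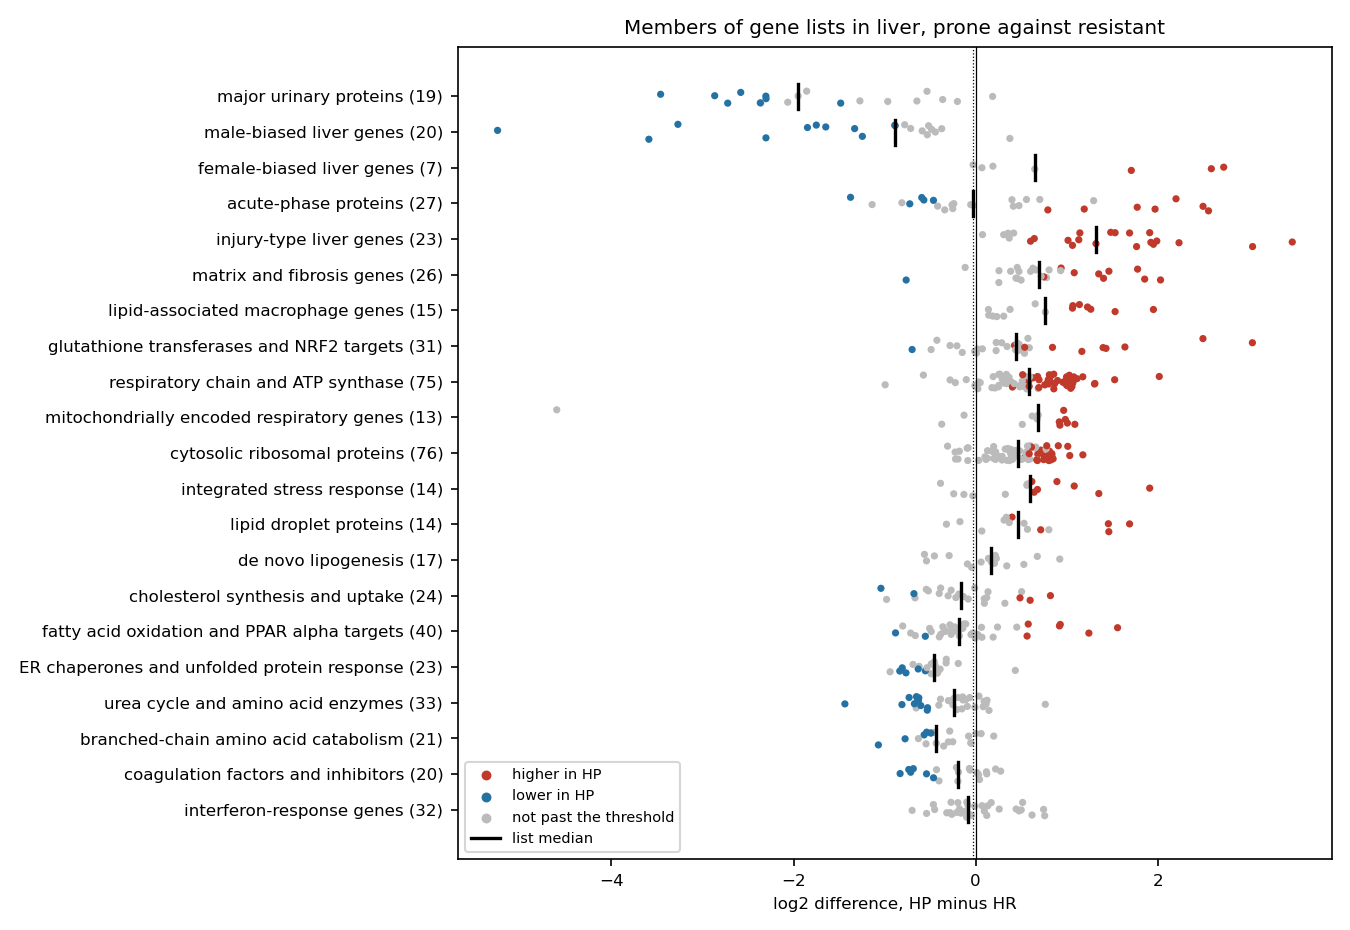
Log2 difference, HP minus HR, of every tested member of 21 gene lists, with the number tested in brackets; red members are higher in HP, blue lower, grey not past the threshold, the bar is the list's median and the dotted line the median of all genes, -0.03. Major urinary proteins (median -1.95) and male-biased genes (-0.89) lie to the left, injury-type genes (1.32) furthest to the right, and the single grey point at -4.60 is mt-Co1, listed at 0 in HP 3.

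Of 16 hepatocyte transcription factors 2 were lower and 1, Cebpb, higher, with 0 lower and 1 higher without HP 2. Over all genes tested 3.94% were lower and 7.2% higher (0.611% and 1.69% without HP 2). With all libraries, 1 higher of 16 is near that share. Hnf4a, a hepatocyte nuclear receptor, had 98.5, 94.5 and 98.9 FPKM in HP and 124, 147 and 160 in HR (-0.55, SE 0.14, adjusted p = 0.0354; 0.12 without HP 2), and Rxra, the shared partner of many nuclear receptors, differed by -0.69 (SE 0.18, adjusted p = 0.0338; 0.131 without HP 2). Por, the electron donor of all microsomal cytochromes P450, had 125, 122 and 129 FPKM in HP and 227, 221 and 248 in HR (-0.88, SE 0.15, adjusted p = 0.00855) and held in all 18 settings. Its 3 HP values were nearly the same and lay far under HR. Cry2, a clock repressor, had 6.28 to 7.27 FPKM in HP and 11.1 to 14.8 in HR (-0.83, SE 0.17, adjusted p = 0.0153; 0.0455 without HP 2 and 0.0675 without HR 2), 1 of 4 lower among 23 clock and output genes. Of insulin signalling genes 4 of 18 were lower and 0 higher, among them Akt2 (-0.51, SE 0.13, adjusted p = 0.0312; 0.124 without HP 2) and Enho, the secreted peptide adropin (-0.97, SE 0.18, adjusted p = 0.0102, held in all 18 settings). Irs2 had 0.762 to 1.44 FPKM in HP and 2.12 to 2.70 in HR (-0.66, adjusted p = 0.134).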

How the data were processed

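RNA was measured by sequencing in liver and epididymal fat of male mice. The deposited table gives FPKM per gene (fragments scaled by transcript length and library size), which the authors computed. Tools named per the submitters' processing notes are STAR 2.4.0, Cufflinks 2.1.1 and CASAVA 1.8.2, and neither their parameters nor the build, annotation or strandedness is given in the sources used here. FPKM divides by estimated transcript length and shares reads among near-identical genes, and values depend on what the other genes of a library take up.

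The 9 liver libraries were fitted together with limma 3.58.1 (R 4.3.3) on log2(FPKM + 1) with a variance trend, over 10633 genes at 1 FPKM or more in at least 3 liver libraries, with Benjamini-Hochberg adjustment over all of them and a threshold of 0.05. A difference is on that scale, which understates changes of low genes. The fit was tested on simulated data. An exact permutation test of 3 against 3 cannot go below p = 0.1 and was not used. Gene symbols, lengths and GC content came from GENCODE M21 (22671 of 23474 identifiers named) and promoters from RefSeq. No depth in reads is given, so no counting interval is printed. The labels do not say whether equal replicate numbers pair the libraries, and no pairing was used in the main fit.

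Genes were named by rule: up to 15 in each direction with the largest differences among those past the threshold, at a mean of 5 FPKM or more and without overlap, and up to 5 past the threshold per list (2 where none passed), with the marked members of the 43 lists. The members and lists were chosen with earlier results of these data known, and 1 list was added after the data were seen. The 18 other settings changed the pseudocount, filter, scaling, variance trend, libraries, replicate block and length and GC correction. Figures were drawn with matplotlib 3.10.9.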

Additional observations from a re-analysis of the deposited data

How the results depend on the processing

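Between 243 and 1445 genes were past the threshold when each library was left out in turn, 177 to 865 of them higher in HP and 65 to 591 lower, against 1185, 766 and 419 with all 9. The lowest counts came without HR 2 (243 genes) and without HP 2 (245), followed by HR 3 (453) and HP 3 (499). With no filter on low values 580 of 17240 genes passed (433 higher, 147 lower), where more genes were tested. After rescaling to the same sum 419 were higher and 785 lower. Same-numbered HP and HR libraries deviated from their group means with correlations of -0.334 to -0.117 (-0.348 to 0.428 with ND). So few pairs cannot decide whether equal replicate numbers mark a pairing. With the number as a replicate block 872 genes passed, 603 higher and 269 lower. In 2 settings chosen after seeing the data, 254 genes passed after the length and GC correction without HP 2 (184 higher, 70 lower), and 13 without both HP 2 and HP 3 (11 higher, 2 lower), where the lone HP library is assumed to vary like the other groups. The other alternatives gave counts within 1.5 times the first, and the cause of the differences was not tested. No named gene past the threshold changed direction in any of the 18 settings, but these genes were picked by their difference in the same libraries. With 3 libraries a group and no read counts, small differences of low genes cannot be judged.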

Other observations

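Several genes differed in the same direction in epididymal fat. Only genes past the threshold in liver were searched, at a mean of 5 FPKM or more in the higher group of each tissue. Of these, 5 were at least 3-fold apart without overlap between HP and HR in both tissues. The choice was made after the values were seen and is given without a test. The share of all genes that meet the same rule was not counted, so the number 5 is not a result in itself. Scand1 was at 16.0, 10.7 and 14.03 FPKM in HP fat and at 2.80, 4.19 and 0.372 in HR fat, with ND fat at 29.0, 0.121 and 1.18. The lysosomal ribonuclease gene Rnaset2b was at 9.82, 5.55 and 7.11 FPKM in HP liver, at 0.767, 1.15 and 1.24 in HR liver, at 9.96, 8.72 and 9.69 in HP fat and at 0.852, 0.749 and 0.412 in HR fat. Its near-identical copy Rnaset2a was at 7.82, 5.90 and 6.86 FPKM in HP liver and at 1.79, 1.48 and 1.77 in HR liver, and reads may be split between the copies. Crip1, a LIM-domain protein, was at 9.60 to 16.7 FPKM in HP liver and 2.94 to 5.42 in HR liver, and at 682 to 1062 in HP fat and 75.0 to 326 in HR fat. The fifth, Gm47283, was at 17.8, 67.4 and 21.9 FPKM in HP liver and 2.27, 12.95 and 4.43 in HR liver, where its limma adjusted p was 0.036 and 0.141 without HP 2. In fat the library ND 1 was close to or above HP for all 5, unlike the other 2 ND libraries. In liver the ND values of Scand1, Rnaset2a and Rnaset2b were all at or under 1.45 FPKM, close to HR.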
